A study of Mus musculus with 6 samples.

Results

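The 31 genes described here belong to the interferon response: Stat2, Irf1, Irf7, Irf9, Ifih1, Ddx58, Ifit1, Ifit2, Ifit3, Ifi27, Ifi44, Ifi35, Isg15, Usp18, Oas2, Oasl2, Rsad2, Parp9, Parp14, Dtx3l, Xaf1, Rnf213, Trim30a, Gbp2, Gbp3, Gbp7, Igtp, Samd9l, Eif2ak2, Psmb8 and Psmb9. They were found by symbol among the 32285 features of each library, and all 31 were present. RNA of single liver nuclei was sequenced from 3 male mice with Plvap knocked out in hepatic stellate cells (HSC) and 3 male littermate controls, 1 library per mouse, with the 10x Genomics 3′ kit version 3.1. All mice were 18 weeks old, of strain C57BL/6JBomTac, ate chow and were fasted for 12 hours overnight. The source label names, for both groups, the Plvap allele Plvaptm1.1Salm and the transgene Tg(Lrat-cre)1Rshw, which drives Cre from Lrat, a gene of stellate cells, with B6.126(Cg) between brackets. Whether the controls carried Cre cannot be read from the labels, which also give no batch, litter or pairing. Stellate cells lie along the liver sinusoids and store vitamin A, and Plvap encodes the protein of the diaphragms of fenestrae and caveolae. The series concerns the part of stellate cells and Plvap in the use of fatty acids by the liver. Here each of the 31 genes is followed through cell classes and through clusters of endothelial nuclei, knockout against control.

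Interferons are secreted proteins that cells release on sensing foreign or misplaced nucleic acid, through RNA sensors such as Ifih1 and Ddx58. Type I interferons signal through the receptor of Ifnar1 and Ifnar2 and the kinases Jak1 and Tyk2 to a complex that holds Stat2 and Irf9 and binds the interferon-stimulated response element (ISRE) in promoters. Type II interferon, Ifng, acts at the gamma-activated site (GAS). Induced genes block viral translation (Ifit1, Ifit2, Ifit3, Eif2ak2), degrade RNA (the Oas genes), attach ISG15 to proteins, form GTPase coats on vacuoles (Gbp2, Gbp3, Gbp7, Igtp) or reshape the proteasome for antigen presentation (Psmb8, Psmb9). In liver, macrophages, sinusoidal endothelium and hepatocytes all carry interferon receptors, and plasmacytoid dendritic cells are known for their capacity to make type I interferon.

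The promoters of several members hold the elements of this pathway, and 6 of them are printed here because they show the ISRE that the induced genes share. RefSeq promoters of build GRCm38.p6, from 250 bases before to 50 bases after a start, were found for 26 of the 31 members. The core of the ISRE, searched on both strands as TTTC and again TTTC with 2 bases of any kind between, lay in the promoters of 13 of the 26 members (50%), against 3.99% of 27025 genes. The motif TTCNNNGAA, searched on both strands for the GAS, lay in those of 7 members (26.9%), against 9.55% of genes. No ISRE match overlapped a GAS match in a member, whereas ISRE matches overlapped each other in Isg15 and Gbp3. The stretches printed lie before the start of Isg15 (chr4:156200819-156200956, minus strand), Ifit1 (chr19:34640725-34640873, plus strand), Stat2 (chr10:128270248-128270345, plus strand), Ifit3 (chr19:34583313-34583476, plus strand), Gbp3 (chr3:142559939-142560043, plus strand) and Gbp7 (chr3:142530223-142530335, plus strand), 5′ to 3′, with the ISRE matches in capitals.
Isg15: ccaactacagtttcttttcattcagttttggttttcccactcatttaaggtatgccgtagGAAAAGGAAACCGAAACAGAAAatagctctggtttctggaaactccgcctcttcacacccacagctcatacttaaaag
Ifit1: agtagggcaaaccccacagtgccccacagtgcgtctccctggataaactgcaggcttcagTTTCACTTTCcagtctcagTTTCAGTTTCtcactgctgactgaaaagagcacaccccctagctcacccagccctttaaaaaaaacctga
Stat2: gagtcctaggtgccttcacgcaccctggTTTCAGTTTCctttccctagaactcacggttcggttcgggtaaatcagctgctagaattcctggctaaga
Ifit3: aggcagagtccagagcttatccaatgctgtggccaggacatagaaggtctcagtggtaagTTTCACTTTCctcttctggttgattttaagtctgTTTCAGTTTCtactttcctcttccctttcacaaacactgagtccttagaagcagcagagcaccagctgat
Gbp3: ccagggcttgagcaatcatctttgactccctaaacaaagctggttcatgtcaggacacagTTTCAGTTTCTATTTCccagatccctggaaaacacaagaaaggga
Gbp7: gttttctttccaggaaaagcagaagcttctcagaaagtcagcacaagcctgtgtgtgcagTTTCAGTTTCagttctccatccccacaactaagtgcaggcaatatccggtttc
The stretch of Isg15 holds 3 matches on the strand opposite to the gene, and those of Ifit1, Ifit3 and Gbp3 hold 2 each on the strand of the gene. A GAS match without an ISRE match was found in Irf1, Ifi35, Psmb8 and Ifit2. Neither motif was found in Dtx3l, Ifi44, Irf7, Irf9, Oasl2, Psmb9, Rnf213, Samd9l and Xaf1, which says only that these letters are not in this window.

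Of 27297 barcodes, 25662 nuclei were kept, with 4421, 4078 and 3954 in the knockouts and 5006, 4675 and 3528 in the controls, and library totals of 23153182 to 27199466 UMIs. Pairs of libraries shared 1 to 10 cell barcodes. In stellate nuclei Plvap had 644, 472 and 370 UMIs in the knockouts, or 225, 187 and 155 CPM (UMIs per 1000000 UMIs of the class), against 711, 684 and 627 UMIs in the controls, or 239, 213 and 239.6 CPM. Knockout 1 thus lay within the range of the controls. The sources used here do not name the deleted exons, so 3′ counts of Plvap need not report the deletion, and mice are named by their labels throughout. Libraries also stood apart in a way that crosses the genotypes. Of hepatocyte nuclei, 79.2% in knockout 2 and 77.9% in control 1 fell into a cluster led by Ces3b, against at most 0.139% in the other libraries, and 78.6% in knockout 1 fell into a cluster led by Afm. Of macrophage nuclei, 82.1%, 94.7% and 10.5% in the knockouts and 94.2%, 13.6% and 34.3% in the controls lay in a cluster led by Il1b. Results that rest on these libraries are also given without control 1 and knockout 2.

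The summed level of the 31 genes answers first whether the libraries order alike. It is given in CPM over all members, a value to which abundant members contribute most. In endothelial nuclei it was 1805, 2000 and 1988 in the knockouts, against 1753, 1532 and 1538 in the controls. All 3 knockouts lay above all 3 controls there, by a narrow step between knockout 1 and control 1. In cholangiocytes it was 1151, 1205 and 1079 in the knockouts, against 922, 854 and 906 in the controls, again without overlap. In the other 5 tested classes the groups overlapped.

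In stellate nuclei the summed level was 1631, 2029 and 1825 in the knockouts, against 1698, 1489 and 1467 in the controls. In macrophages it was 3614, 4436 and 3877 in the knockouts, against 3906, 3592 and 3480 in the controls. In hepatocytes it was 710 (knockout 1), 804 (knockout 2) and 609 (knockout 3), against 802, 583.5 and 536 in controls 1, 2 and 3. In each of these 3 classes knockout 2 was the highest library, control 3 the lowest, and control 1 the highest control. T/NK cells had 2019, 2176 and 2486 in the knockouts, against 1897, 1887 and 2119 in the controls. B cells had 1678, 1754 and 2027 in the knockouts, against 1852, 2179 and 1565 in the controls. These lymphocyte classes ordered differently, with knockout 3 highest in T/NK cells and control 2 highest in B cells.

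**Figure D1:**
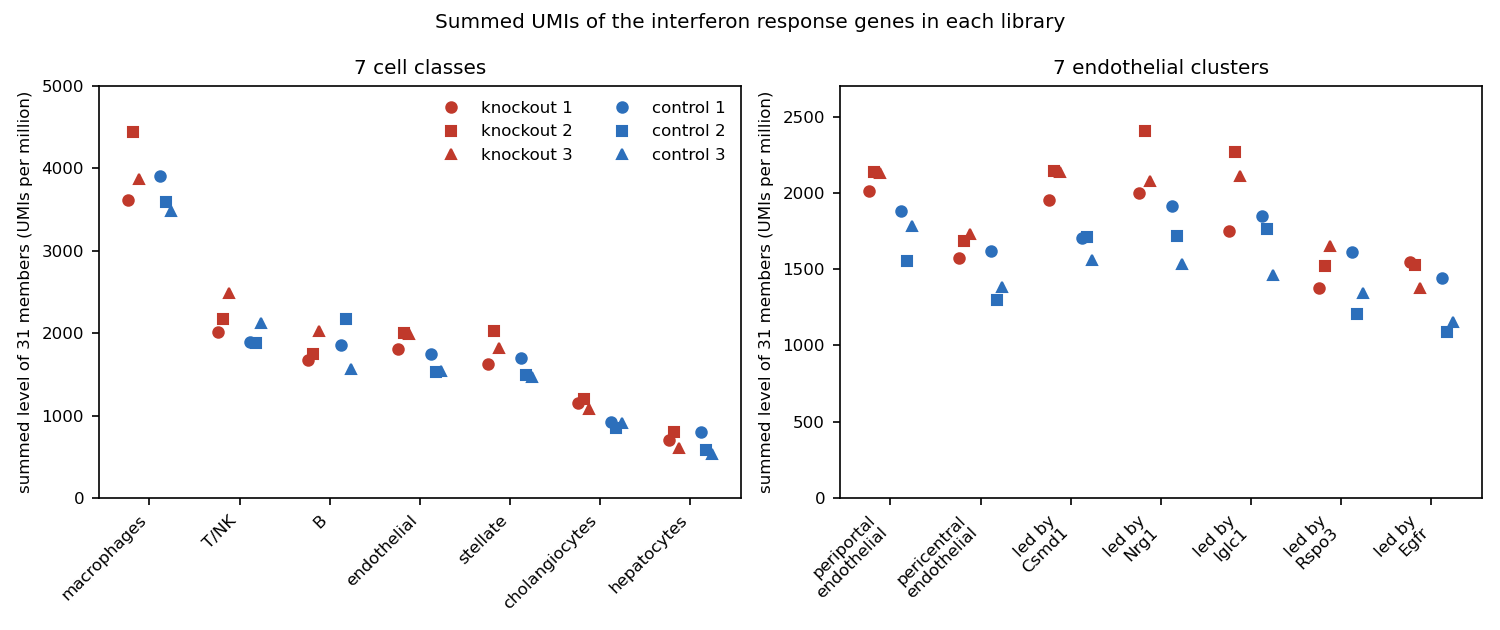
Summed UMIs of the 31 interferon response genes in CPM of the class or cluster (linear axis from 0), for 7 cell classes (left) and 7 endothelial clusters (right), with 3 knockout mice in red left of 3 control mice in blue. Macrophages had the highest levels and hepatocytes the lowest, and the groups did not overlap in endothelial cells, cholangiocytes and the periportal, Csmd1-led and Nrg1-led endothelial clusters.

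Across the 7 classes the mean of the knockouts was higher in 6, the exception being B cells, with means of 1819 ± 184 in knockouts and 1866 ± 307 in controls (SD, n = 3 each). The libraries ordered partly alike. Knockout 2 was highest in 5 of 7 classes and among the highest 2 in 6. Control 3 was lowest in 4 classes and control 2 in 3, so that these mice filled the lowest place in all 7. Knockout 1 and control 1 stood in the middle, with mean ranks of 3.57 and 3.29 where 1 is the highest. The spread between the highest and lowest library was 1.27-fold in macrophages and 1.5-fold in hepatocytes. The ratio of the knockout to the control mean was 1.201 in endothelial cells, 1.18 in stellate cells, 1.28 in cholangiocytes and 1.09 in macrophages. With the genes weighted equally, as the mean of log2 deviations, the same classes did not overlap.

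Within the macrophage clusters that the libraries fill unequally, the order was only partly that of the class. In the Il1b-led cluster the summed level was 3691, 4444 and 4345 in the knockouts, against 3920, 3916 and 3747 in the controls. In the cluster led by Kcnj16 it was 3333, 4305 and 3844 in the knockouts, against 3718, 3558 and 3374 in the controls. Knockout 2 was highest in both clusters, as in the class. Knockout 1 was lowest in both, below every control, whereas control 3 was lowest in the class. Some values rest on few nuclei, with 77 of knockout 3 in the Il1b-led cluster and 37 of knockout 2 in the Kcnj16-led cluster. In the stellate clusters led by Lsamp and by Grid1, knockout 2 was highest as well, at 2271 and 1666.

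**Figure D2:**
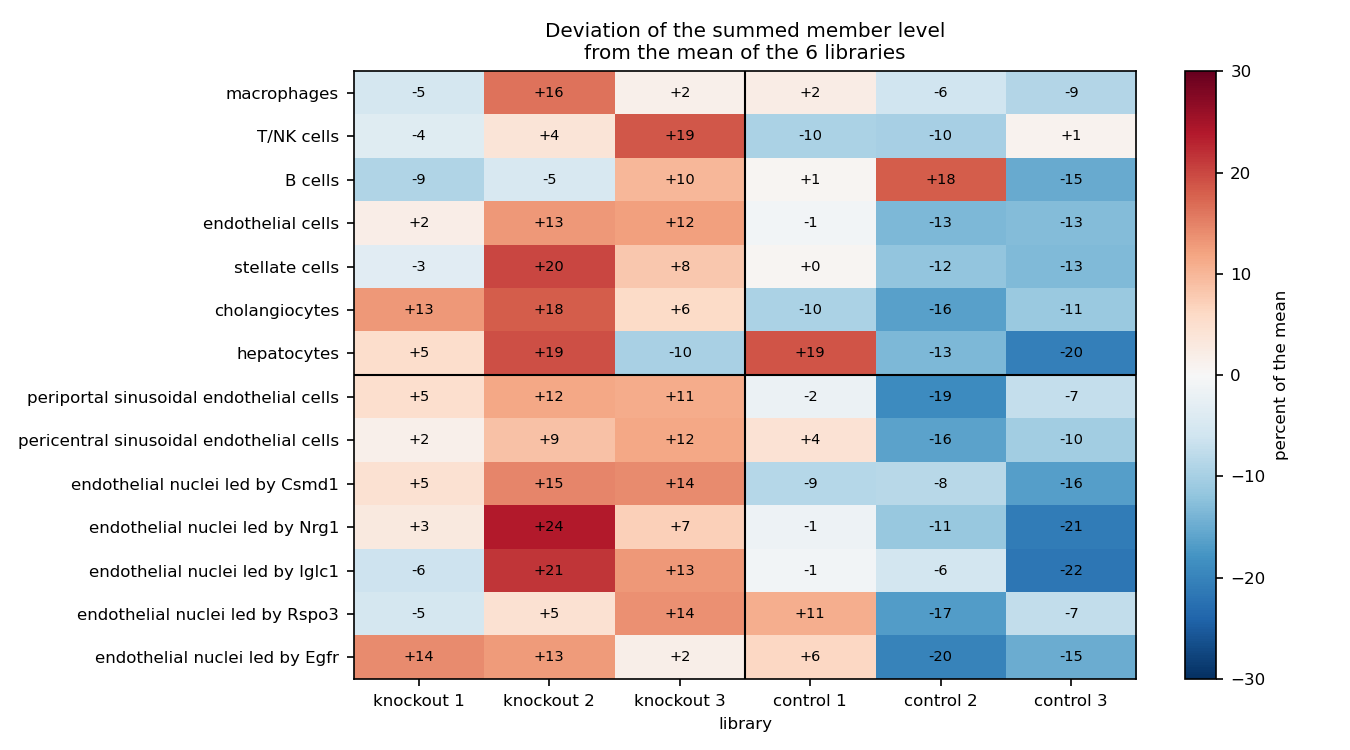
Deviation of the summed level of the 31 genes from the mean of the 6 libraries, in percent of that mean (colour and printed number), for each library (columns, knockouts left of the line, controls right) in 7 classes and 7 endothelial clusters (rows). Knockout 2 was above the mean in every row but B cells, and control 3 below it in every row but T/NK cells.

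No member passed the test between knockout and control in any class. The test was edgeR's quasi-likelihood test on counts summed per mouse, adjusted by Benjamini-Hochberg over all genes tested in the class, with a threshold of 0.05, and DESeq2 called 0 members too. The members did lean one way: all fold changes below are log2, knockout over control. In endothelial nuclei 29 of 31 members had a fold change above 0, where 49.1% of 13255 genes did, and the median was 0.29, where that of all genes was close to 0. Unadjusted p was under 0.05 for 11 members, all higher in knockouts, against 2.29% of genes higher and 2.01% lower at that p. All 3 knockouts lay above all 3 controls for 12 members, against 7.16% of genes, and below them for 0 members, against 2.81%. The smallest adjusted p of a member was 0.9996, and 0 of 13255 genes passed in this class.

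Among the transcription factors, Irf9 (chr14:55603571-55610030), the DNA-binding part of its complex with Stat2, had 47.7, 49.8 and 54.8 CPM in the knockouts, against 43.0, 34.3 and 31.6 CPM in the controls. The groups did not overlap, with a fold change of 0.44 (SE 0.13) and an unadjusted p of 0.00706, the smallest of any member in the class. Stat2 (chr10:128270559-128292849), its partner, had 115, 120.1 and 116 CPM in the knockouts, against 111, 88.5 and 84.9 CPM in the controls, without overlap (fold change 0.26, SE 0.11). Irf7 (chr7:141262706-141266481), an inducible factor that amplifies interferon production, had 100, 103 and 101 UMIs in the knockouts, or 14.7, 19.6 and 18.8 CPM, against 84, 85 and 49 UMIs in the controls, or 13.8, 13.1 and 10.9 CPM. Here too the groups were apart, with a fold change of 0.43 (SE 0.17). Irf1, which is induced mainly by type II interferon, overlapped, with a fold change of 0.02 (SE 0.12). Both RNA sensors overlapped, with fold changes of 0.14 for Ifih1 and 0.05 for Ddx58.

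Of the antiviral effectors, 7 of 8 had a fold change above 0. Ifit3 (chr19:34583531-34588731), of the same gene family as Ifit1, had 90, 75 and 116 UMIs in the knockouts, against 52, 67 and 44 UMIs in the controls. In CPM these were 13.2, 14.3 and 21.6 CPM, against 8.52, 10.3 and 9.78 CPM, without overlap, and the fold change of 0.73 (SE 0.22) was the highest of any member in this class. Ifit1 itself, a sensor of RNA caps, had 34, 29 and 18 UMIs in the knockouts, against 33, 31 and 17 UMIs in the controls. Its fold change was -0.06, smaller than its SE of 0.27, so that it showed no direction. Its difference from Ifit3, a neighbour on chromosome 19, was not tested. Ifit2 had 30.4, 31.7 and 31.4 CPM in the knockouts, against 27.4, 20.3 and 28.7 CPM in the controls, and Samd9l, a restriction factor of poxviruses, 78.4, 63.3 and 64.7 CPM against 60.7, 58.9 and 53.2 CPM, both without overlap. Rsad2, the radical enzyme viperin, had 294, 162 and 385 UMIs in the knockouts, against 115, 230 and 175 UMIs in the controls, so the groups overlapped despite a fold change of 0.60 (SE 0.41). Oasl2, Eif2ak2 and Oas2 had fold changes of 0.30, 0.29 and 0.34 and overlapped.

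Of the ISG15 genes, Usp18, the protease that removes ISG15 and damps the receptor, had 27.8, 32.3 and 39.4 CPM in the knockouts, against 27.1, 24.9 and 22.5 CPM in the controls, just without overlap (fold change 0.37, SE 0.16). Isg15, the ubiquitin-like modifier, was counted 26, 43 and 31 times in the knockouts, against 46, 18 and 23 times in the controls. It overlapped, with a fold change of 0.15 (SE 0.38), so that Isg15 and Ifit1, classical markers of the response, rested on few UMIs and set no direction. Among other induced genes, Rnf213, a large ubiquitin ligase with ATPase activity, had 242, 253 and 240.8 CPM in the knockouts, against 216.5, 188.5 and 174 CPM in the controls. Its groups were apart with a fold change of 0.31 (SE 0.10) and an unadjusted p of 0.0102. Xaf1, which counters inhibitors of apoptosis, was at 45.5, 54.0 and 54.8 CPM in the knockouts, against 44.3, 39.5 and 34.2 CPM in the controls. Ifi44 had 33.0, 59.5 and 44.96 CPM in the knockouts, against 33.4, 21.9 and 27.8 CPM in the controls, an overlap by knockout 1 and control 1 alone.

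The GTPases and the immunoproteasome varied among themselves in endothelial nuclei. Gbp7 had 44.6, 53.0 and 55.7 CPM in the knockouts, against 43.1, 34.6 and 39.8 CPM in the controls, without overlap. Gbp3 and Igtp had fold changes of 0.65 (SE 0.23) and 0.64 (SE 0.28) and overlapped, whereas Gbp2 was at -0.21 (SE 0.23). Psmb8 (chr17:34197721-34201454), a catalytic subunit that replaces a constitutive one after interferon, had 13.5, 14.6 and 17.3 CPM in the knockouts, against 10.3, 11.9 and 12.5 CPM in the controls. It was the only member whose groups were apart in 3 classes, endothelial cells, macrophages and stellate cells. Its partner Psmb9 overlapped in endothelial nuclei, with a fold change of 0.36 (SE 0.18). Parp9 was apart by a small step, at 90.3, 94.6 and 88.1 CPM in the knockouts, against 87.2, 86.8 and 84.7 CPM in the controls, with a fold change of 0.03, and its ubiquitin ligase partner Dtx3l was at 0.01. Both genes overlap at their starts on opposite strands of chromosome 16, and the sources used here do not say whether strand was used in counting.

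**Figure D3:**
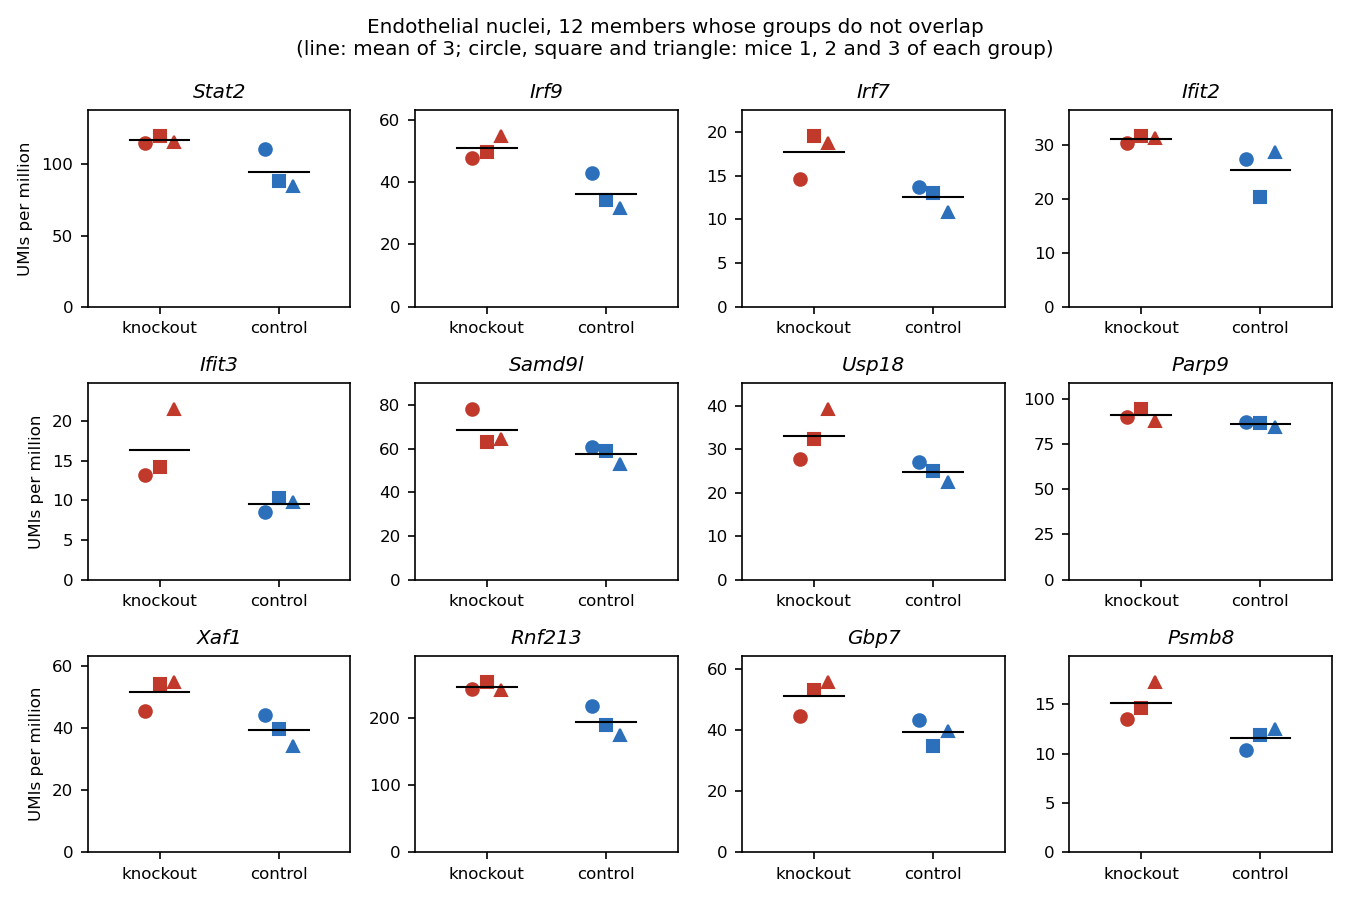
Level in endothelial nuclei, in CPM on a linear axis from 0, of the 12 members whose 3 knockout mice (red, left) all lay above the 3 control mice (blue, right); the line is the mean of 3. The step between the groups was wide for Ifit3 and narrow for most others, Parp9, Usp18, Xaf1, Gbp7, Stat2 and Samd9l among them, and control 1 was the highest control in 9 of the 12 panels.

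RNA of other cells was also counted in these nuclei. The summed level of 20 hepatocyte transcripts, which reach other nuclei as free RNA, was 3116, 3922 and 4822 CPM in endothelial nuclei of knockouts, against 2581, 3223 and 3076 CPM in those of controls, with a median fold change of 0.30 over the list. The list overlapped between the groups, and 16 of its 20 genes had a fold change above 0. The members differed in how far hepatocytes carry them. Stat2 averaged 106 CPM in endothelial nuclei and 184 CPM in hepatocytes, and Parp9, Dtx3l and Igtp were also higher in hepatocytes. Ifit3 averaged 12.9 CPM in endothelial nuclei and 0.616 CPM in hepatocytes, and Trim30a 237 CPM and 5.39 CPM. The 7 immune markers summed to 43.6, 58.2 and 76.4 CPM in endothelial nuclei of knockouts, against 44.6, 45.5 and 37.6 CPM in controls. Of these, Siglech, of plasmacytoid dendritic cells, was at 0 to 2 UMIs in each library and Cd3e, of T cells, at 2 to 7 UMIs. Both add little to the sum, which rests mainly on the other markers. Oas2, at 300.6 CPM in macrophages, was at 2.47 to 4.83 CPM in endothelial nuclei of knockouts and 1.48 to 3.54 CPM in those of controls. Mitochondrially encoded RNA was apart in endothelial nuclei, at 2662, 2678 and 2926 CPM in knockouts, against 2612, 2327 and 2538 CPM in controls, with 9 of 10 genes above 0 and a median of 0.09. It was also apart with knockouts higher in pericentral nuclei and in all kept nuclei. The part of free RNA, of RNA from macrophages and other immune cells, of mitochondrially encoded RNA and of RNA quality in the result was not tested. Without control 1 and knockout 2 the median of the members was 0.30, and leaving out each mouse in turn gave 0.23 to 0.33.

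Within the endothelium the median of the members was above 0 in 6 of the 7 tested clusters, and differences between clusters were not tested. Endothelial nuclei were clustered again without the members and without Plvap, with genes centred within each library. They include 195 nuclei of a Vwf-led cluster that was left out of the endothelial class. The periportal and pericentral clusters were named from markers among their leading genes. By the mean standardised level of each zone's markers, both came closest to midzonal endothelium, at 0.698 and 0.546. By that score the Rspo3-led cluster was closest to pericentral, at 1.83, and the Nrg1-led cluster to periportal, at 1.18. Periportal nuclei, 2316 in number, had 23 of 28 tested members above 0 (background 50%) and a median of 0.31. Of these, 9 members had an unadjusted p under 0.05 with knockouts higher (background 2.37%), and 11 had all knockouts above all controls (background 6.59%). Ifit3 had 38, 30 and 37 UMIs in periportal nuclei of knockouts, against 14, 19 and 12 UMIs in those of controls. In CPM that was 18.6, 22.4 and 24.2 CPM, against 8.74, 9.98 and 10.4 CPM, with a wide gap between the groups and a fold change of 1.11 (SE 0.27), at an edgeR adjusted p of 0.447. Ifi44 followed with 42.5, 79.8 and 46.4 CPM in knockouts, against 34.4, 20.5 and 30.2 CPM in controls (fold change 0.94, SE 0.26). Rnf213 had 290.4, 281 and 282 CPM in knockouts, against 242, 174 and 212 CPM in controls. Gbp2 went the other way, as the only member apart with knockouts lower there (background 3.12%), at a fold change of -0.45. Immediate early and stress genes summed to 80.5, 96.9 and 88.9 CPM in periportal nuclei of knockouts, against 100.6, 140.2 and 125.3 CPM in those of controls, apart with knockouts lower, and all 4 tested were below 0. Free hepatocyte RNA was above 0 for 16 of 20 genes there, with a median of 0.26. The part of both in the result was not tested. Isg15 had 4.88, 7.46 and 4.57 CPM in periportal nuclei of knockouts, against 8.12, 2.10 and 8.64 CPM in those of controls.

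Pericentral nuclei, 2619 in number, had 23 of 27 members above 0 (background 49.7%) and a median of 0.19. Only Gbp3 had an unadjusted p under 0.05 (background 2.42% with knockouts higher), at 10.6, 18.9 and 15.9 CPM in knockouts, against 8.99, 6.66 and 5.97 CPM in controls. Groups were apart with knockouts higher for 6 members (background 6.45%): Gbp3, Rnf213, Psmb9, Irf9, Ifit2 and Samd9l. Ifit3, so far apart in periportal nuclei, had a fold change near 0 here. The difference between these zones was not tested, and they share the same mice. Rsad2 and Ifi44 were higher in knockouts in both zones without passing.

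The cluster led by Csmd1, with 1400 nuclei that carry no zone's markers among their leading genes, had 25 of 26 members above 0 (background 50.2%) and a median of 0.32, which was 0.15 with nuclei thinned to 1000 UMIs. Unadjusted p was under 0.05 with knockouts higher for 11 members (background 2.16%), and 10 were apart (background 6.12%). Psmb8 was counted 18, 16 and 14 times in knockouts, against 6, 5 and 6 times in controls, or 18.5, 17.1 and 14.8 CPM against 5.49, 4.61 and 7.12 CPM. This was a fold change of 1.52 (SE 0.39), at an unadjusted p of 0.00126 and an edgeR adjusted p of 0.667. Oasl2 had 78.2, 105.8 and 127 CPM in knockouts, against 68.7, 64.6 and 72.4 CPM in controls, and Irf7 15.4, 20.3 and 35.9 CPM against 13.7, 12.9 and 8.31 CPM. Immune genes are among those that lead this cluster: Icam1, Relb and Cxcl9, the last of them itself induced by interferon. In the cluster led by Nrg1, with Adgrg6, Col8a1 and Mecom, 20 of 22 members were above 0 (background 50.3%) and 4 had an unadjusted p under 0.05 with knockouts higher (background 2.29%). Ifi27 led it with 56.2, 79.6 and 78.9 CPM in knockouts, against 19.4, 52.3 and 36.3 CPM in controls. Groups were apart there with knockouts higher for 5 members (background 4.86%) and lower for Irf1 (background 4.83%). The cluster led by Iglc1 had 18 of 25 members above 0 (background 49.2%), that led by Rspo3 7 of 15 (background 50.2%) and that led by Egfr 4 of 4 (background 50.6%). Hepatocyte genes are among those that lead the Egfr-led nuclei (Mat1a, Apob, Cps1, Pck1) and the Iglc1-led nuclei (Apoa2, Serpina1c, Gc). Free hepatocyte RNA was above 0 for 20 of 20 genes in the Egfr-led nuclei, with a median of 0.51, and for 14 of 20 in the Iglc1-led nuclei, and its part was not tested. The Iglc1-led nuclei were also shallow, with library medians of 1888 to 2567.5 UMIs. In the Rspo3-led cluster the median of the members was -0.02. Ifi35 and Parp9 were apart there with knockouts lower (background 4.69%), Ifi35 at 30.9, 49.1 and 68.9 CPM in knockouts, against 94.2, 70.2 and 72.8 CPM in controls. Stat2 was the 1 member apart with knockouts higher (background 5.17%). It had 82.3, 128.5 and 170.3 CPM in knockouts, against 75.3, 58.0 and 72.8 CPM in controls. The summed level was apart with knockouts higher in the periportal, Csmd1-led and Nrg1-led clusters and overlapped in the other 4.

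**Figure D4:**
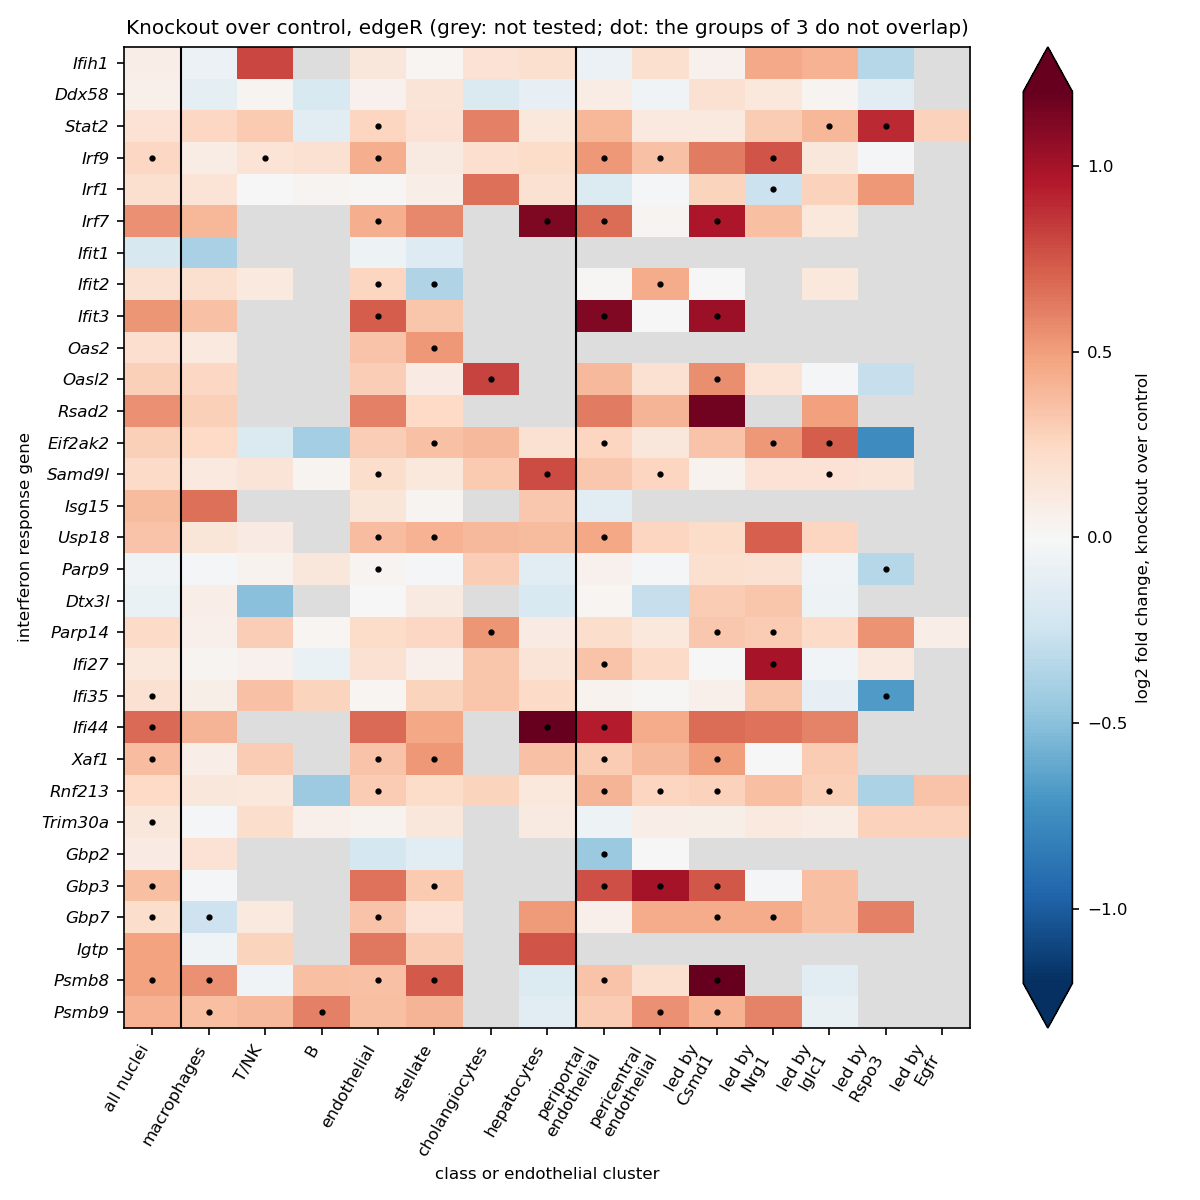
Log2 fold change, knockout over control, of each of the 31 genes (rows) in all kept nuclei, 7 classes and 7 endothelial clusters (columns), from edgeR; colours are cut at 1.2 in either direction, grey was not tested, and a dot marks groups of 3 that do not overlap. Warm colours prevail in most columns, endothelial cells, stellate cells and cholangiocytes among them, but not in the Rspo3-led cluster. No value passed the threshold.

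In stellate cells, the target of the knockout, 27 of 31 members were above 0 (background 49.7%), with a median of 0.17. Unadjusted p was under 0.05 for 4 members with knockouts higher (background 2%) and for 1 with knockouts lower (background 2.04%). Groups were apart for 6 members with knockouts higher (background 7.34%) and 1 with knockouts lower (background 2.94%). The smallest member p was 0.00767, at an edgeR adjusted p of 1, whereas 6 of 12030 genes passed, or 0.0499%, none of them a member.

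Xaf1 had 120, 162 and 128 UMIs in stellate nuclei of knockouts, against 107, 114 and 92 UMIs in those of controls. In CPM these were 41.9, 64.1 and 53.5 CPM, against a tight 36.0, 35.5 and 35.2 CPM, with a fold change of 0.52 (SE 0.16). Psmb8 had 33, 28 and 35 UMIs in knockouts, against 21, 23 and 19 UMIs in controls, also apart, with a fold change of 0.74 (SE 0.24). Oas2, which makes the second messenger that activates RNase L, had 49.97, 74.4 and 60.2 CPM in knockouts, against 35.0, 49.2 and 39.4 CPM in controls (fold change 0.52, SE 0.17). Control 2 nearly reached knockout 1. Ifit2 went the other way, with 38.4, 34.8 and 29.3 CPM in knockouts, against 45.4, 42.3 and 39.4 CPM in controls, and a fold change of -0.36 (SE 0.15). Usp18, Eif2ak2 and Gbp3 were also apart with knockouts higher, Usp18 at 37.7, 44.4 and 61.0 CPM, against 37.4, 34.6 and 30.6 CPM. Irf7 had 10.1, 31.3 and 22.2 CPM in knockouts, against 10.8, 13.7 and 16.1 CPM in controls, so that knockout 1 was below every control. Stat2 had 141.5, 153 and 142 CPM in knockouts, against 147, 115 and 111 CPM in controls, and overlapped through control 1. Isg15 ranged from 8.39 to 10.3 CPM in knockouts and from 8.40 to 9.42 CPM in controls, and Ifit1 from 8.04 to 11.3 CPM in knockouts and 9.03 to 12.8 CPM in controls, with no direction. Free hepatocyte RNA in stellate nuclei was 2170, 3012 and 3952 CPM in knockouts, against 1748, 1926 and 2242 CPM in controls, with a median fold change of 0.45 over its 20 genes, and its part in the result was not tested. The 7 immune markers summed to 45.8, 50.7 and 61.0 CPM in stellate nuclei of knockouts, against 46.1, 35.8 and 32.9 CPM in those of controls. All 3 of them that were tested were above 0, with a median of 0.33 and 1 at an unadjusted p under 0.05, and Cd3e and Siglech were each at 0 in 5 libraries. Their part was not tested. The median of the members was 0.19 without both control 1 and knockout 2, and 0.28 with nuclei thinned to 1000 UMIs. Leaving out 1 mouse gave 0.30 without control 1, 0.27 without knockout 1, and as its lowest 0.13 without control 3.

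Macrophages had the highest summed level of the members, and 23 of 31 members were above 0 (background 50.5%), with a median of 0.12. Unadjusted p was under 0.05 for 3 members, all higher in knockouts (background 1.93% higher and 1.38% lower), 2 members were apart with knockouts higher (background 5.49%) and 1 with knockouts lower (background 3.38%). Psmb8 had 99, 132 and 125 UMIs in knockouts, against 86, 99 and 64 UMIs in controls, or 31.9, 37.3 and 31.4 CPM, against 23.0, 25.8 and 18.9 CPM. Its groups were apart with a fold change of 0.55 (SE 0.16) and an unadjusted p of 0.00636. Psmb9 had 44.8, 58.4 and 57.0 CPM in knockouts, against 44.4, 39.0 and 39.9 CPM in controls, apart by a small step between knockout 1 and control 1. Irf7 had 90.8, 134 and 102 CPM in knockouts, against 83.4, 91.3 and 69.7 CPM in controls, an overlap of knockout 1 and control 2. Gbp7 was apart with knockouts lower, at 60.5, 62.1 and 57.5 CPM in knockouts, against 65.8, 71.8 and 72.6 CPM in controls (fold change -0.24, SE 0.12). Stat2 had 229, 290.2 and 267 CPM in knockouts, against 247, 209 and 199 CPM in controls. Isg15 had 12, 40 and 28 UMIs in knockouts, against 20, 16 and 15 UMIs in controls, and Ifit1 11, 13 and 11 UMIs against 19, 17 and 11 UMIs. Knockout 2 was the highest library for 18 of the 31 members in macrophages. Without knockout 2 the median was 0.06, and without both control 1 and knockout 2 it was 0.06 as well. Free hepatocyte RNA was apart here, at 2884, 3416 and 3936 CPM in knockouts, against 2442, 2852 and 2793 CPM in controls, and its part was not tested.

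In hepatocytes 23 members were tested, 8 members having too few UMIs, and 18 were above 0 (background 49.5%), with a median of 0.18. Only Irf7 and Samd9l had an unadjusted p under 0.05 (background 1.34% with knockouts higher and 2.09% lower), and together with Ifi44 they were the 3 members apart with knockouts higher (background 4.51%), beside 0 lower (background 2.99%). Irf7 had 49, 90 and 58 UMIs in knockouts, against 52, 27 and 24 UMIs in controls, or 5.84, 8.99 and 7.55 CPM, against 4.79, 3.29 and 1.98 CPM. The fold change was 1.12 (SE 0.31), at an unadjusted p of 0.00773 and an edgeR adjusted p of 0.9999. Samd9l had 45, 59 and 58 UMIs in knockouts, against 53, 31 and 25 UMIs in controls, and Ifi44 14, 21 and 9 UMIs against 12, 6 and 1 UMIs. Both rest on few molecules, and control 3 was the lowest library for Irf7, Samd9l and Ifi44 alike. Stat2, by contrast, had 214, 220.3 and 148.5 CPM in knockouts, against 238, 139 and 143 CPM in controls, so that control 1 and the knockouts 1 and 2 were high and the rest low. Usp18 had 15.6, 18.4 and 22.1 CPM in knockouts, against 17.3, 14.2 and 10.6 CPM in controls, and Isg15 0.835 to 3.60 CPM in knockouts and 0.495 to 2.44 CPM in controls. The median of the members was 0.34 without control 1, 0.09 without knockout 2 and 0.06 without control 3, and 0.19 without both control 1 and knockout 2. Other classes carried more of Irf7 (95.2 CPM in macrophages), Samd9l (271 CPM in B cells) and Ifi44 (36.8 CPM in endothelial cells). The part of RNA from other cells in hepatocyte nuclei was not tested.

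The smaller classes carried fewer testable members. In cholangiocytes 13 of 14 were above 0 (background 49.2%), with a median of 0.34. Oasl2 alone had an unadjusted p under 0.05 (background 2.1% with knockouts higher and 2.16% lower), with 24, 18 and 17 UMIs in knockouts, against 12, 24 and 3 UMIs in controls, or 57.5, 47.8 and 60.5 CPM, against 34.7, 39.3 and 11.04 CPM. Oasl2 and Parp14 were apart with knockouts higher (background 4.79%), and 0 members with knockouts lower (background 3.63%). Parp14, a mono-ADP-ribosyl transferase, had 81.4, 79.7 and 89.0 CPM in knockouts, against 43.4, 54.1 and 77.3 CPM in controls. Stat2 had 32, 34 and 16 UMIs in cholangiocytes of knockouts, against 25, 19 and 14 UMIs in those of controls, and overlapped (fold change 0.61, SE 0.31). Free hepatocyte RNA in cholangiocytes had a median fold change of 0.54, larger than that of the members, and its part was not tested. In T/NK cells 17 of 21 members were above 0 (background 49.9%), with a median of 0.13 (0.05 without knockout 3, 0.22 without control 3 and 0.28 in nuclei with at least 2000 UMIs), and 0 had an unadjusted p under 0.05 (background 2.22% higher and 1.91% lower in knockouts). In edgeR 0.0155% of all genes passed there. This was 1 gene, from the list of free hepatocyte RNA and higher in knockouts (edgeR adjusted p 9.38e-05). Ifih1 had the smallest p, 0.0561, on 13, 15 and 21 UMIs in knockouts, against 14, 5 and 5 UMIs in controls, and Irf9 was the 1 member apart with knockouts higher (background 5.63%), with 0 lower (background 3.97%). Dtx3l had 28, 17 and 21 UMIs in knockouts, against 34, 24 and 22 UMIs in controls. Parp14 had 174, 179 and 205.5 CPM in T/NK cells of knockouts, against 137.5, 137 and 177 CPM in those of controls. Stat2 had 52.6, 75.4 and 70.8 CPM in T/NK cells of knockouts, against 40.0, 74.9 and 44.8 CPM in those of controls, and overlapped. In B cells 9 of 14 were above 0 (background 49.4%), with a median of 0.03 (-0.11 without control 3 and 0.18 without control 2), and again 0 had an unadjusted p under 0.05 (background 2.17% higher and 2.25% lower in knockouts). In edgeR 0.062% of all genes passed there. Of these 3 genes, 1 was from the list of free hepatocyte RNA and higher in knockouts (edgeR adjusted p 1.51e-05). Psmb9 was the 1 member apart with knockouts higher (background 4.88%), with 0 lower (background 4.32%), with 79.9, 64.7 and 103 CPM in knockouts, against 56.0, 48.3 and 60.5 CPM in controls. Rnf213 in B cells had 109, 95.3 and 142 CPM in knockouts, against 138, 217 and 134 CPM in controls, a fold change of -0.43 (SE 0.25), and Eif2ak2 9, 8 and 33 UMIs, against 11, 10 and 17 UMIs. Stat2 had 21, 34 and 49 UMIs in B cells of knockouts, against 26, 22 and 19 UMIs in those of controls, with a fold change of -0.14 (SE 0.26) once scaled. In these lymphocytes free hepatocyte RNA was apart with knockouts higher, at 5295, 5299 and 6741 CPM in T/NK cells of knockouts, against 3691, 4659 and 4490 CPM in controls. Its median fold change was 0.42 in T/NK cells and in B cells alike, and its part was not tested. Plasmacytoid dendritic cells, with 90 nuclei in all, were too few to test, and their summed level was 2085, 2991 and 2993 in knockouts, against 3262, 2629 and 1854 in controls.

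Over all kept nuclei together, where shares of cell classes enter, 28 of 31 members were above 0 (background 48.2%), 7 had an unadjusted p under 0.05 with knockouts higher (background 1.46%, and 1.72% lower), and 8 were apart with knockouts higher (background 5.14%) and 0 lower (background 2.45%). None passed, as against 0.0109% of all genes. In bulk values of this kind, fewer cells of a type and less RNA per cell cannot be told apart. Psmb8 led with 13.7, 15.2 and 16.4 CPM in knockouts, against 9.85, 12.4 and 9.11 CPM in controls. Gbp3, a GTPase of the same chromosome 3 cluster as Gbp2 and Gbp7, had 15.98, 16.8 and 17.2 CPM in knockouts, against 13.5, 12.9 and 11.3 CPM in controls. Ifi44 had 14.8, 23.8 and 19.1 CPM in knockouts, against 14.2, 11.7 and 8.91 CPM in controls. All 3 were apart, and again control 3 was the lowest library for each. Of the members with most UMIs in their role, Rnf213 had 203, 249.5 and 229 CPM in knockouts, against 216, 189 and 155 CPM in controls. Parp14 had 152, 173 and 168 CPM in knockouts, against 162, 131 and 115 CPM in controls, and Ifih1 65.4, 78.3 and 70.4 CPM against 76.2, 65.0 and 54.9 CPM. Control 1 lay among the knockouts for all 3, so that the groups overlapped. Gbp7, at 34.3, 35.0 and 36.2 CPM in knockouts, against 31.2, 30.2 and 26.7 CPM in controls, did not overlap. Members differed in how steady their sign was: Irf9, Samd9l, Parp14 and Ifi35 were above 0 in all 7 classes where tested, and Ifit1 was below 0 in all 3. Whether the knockout effect differed between hepatocytes, stellate cells, endothelial cells and macrophages was tested in a joint edgeR model of mice, classes and a term for each class by genotype, with each class against the mean of the other 3. Of 31 members, 0 passed in any class, with a smallest adjusted p of 0.856. Of all 16062 genes, 0.00623% passed in hepatocytes and in stellate cells alike and 0% in the other classes. Unadjusted p was under 0.05 for 5 members in hepatocytes (background 4.97%), 1 in endothelial cells (background 3.06%), 1 in macrophages (background 3.07%) and 0 in stellate cells (background 3.69%). The member in endothelial cells was Irf9, with a difference of 0.32 (SE 0.13).

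Levels also differed between classes, for some genes widely. These are descriptions, since the same nuclei defined the classes. Macrophages had the highest mean of 14 members, among them Oas2, Irf7, Trim30a, Rnf213 and Parp14. Oas2 averaged 300.6 ± 35.5 CPM in macrophages, 51.4 ± 14.4 CPM in stellate cells, 23.0 ± 18.9 CPM in B cells and 14.2 ± 12.7 CPM in T/NK cells (SD over 6 mice), and 3.15 CPM or less in the other 3 classes. Stellate cells thus stood second for an enzyme that endothelial cells, at 3.05 ± 1.12 CPM, hardly carried. Irf7 averaged 95.2 ± 21.8 CPM in macrophages, then 22.9 ± 7.29 in T/NK cells, 17.4 ± 8.10 in stellate cells, 15.7 ± 8.62 in B cells and 15.1 ± 3.38 in endothelial cells, neighbours that did not differ beyond their spread. It was lowest in cholangiocytes (7.19 ± 4.27) and hepatocytes (5.41 ± 2.62). T/NK cells were highest for 9 members: Irf1, Igtp, Psmb8, Psmb9, Gbp2, Gbp7, Ddx58, Ifi35 and Ifit2.

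Other patterns set single genes apart. Endothelial cells were highest for Rsad2 (39.8 ± 17.7 CPM, with macrophages at 33.5 ± 9.73) and Ifi44 (36.8 ± 13.5 CPM, with macrophages at 20.3 ± 7.86), the spread of each overlapping with the next class. Stellate cells were highest for Ifih1, Ifit1 and Isg15, with Ifih1 at 157 CPM beside 134 CPM in macrophages and 10.5 CPM in B cells. Cholangiocytes were highest for Ifi27, at 120.4 CPM, and B cells for Irf9 and Samd9l. Some of these places are near ties, with Irf9 at 76.1 CPM in B cells and 74.9 CPM in macrophages, Ifi35 at 71.3 CPM in T/NK cells and 69.8 CPM in macrophages, Gbp2 at 10.8 and 9.86 CPM in the same pair, and Dtx3l at 65.5 CPM in macrophages and 64.0 CPM in T/NK cells. Hepatocytes were lowest for 22 of the 31 genes, yet were second for Stat2, at 184 ± 45.1 CPM beside 240.2 ± 34.9 CPM in macrophages. In them Trim30a (5.39 CPM), Ifit2 (0.209 CPM) and Oasl2 (0.614 CPM) were near absent. Genes with near-identical copies, such as Ifit3 beside Ifit3b, the Gbp cluster and Trim30a beside its paralogs, may lose or share reads.

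**Figure D5:**
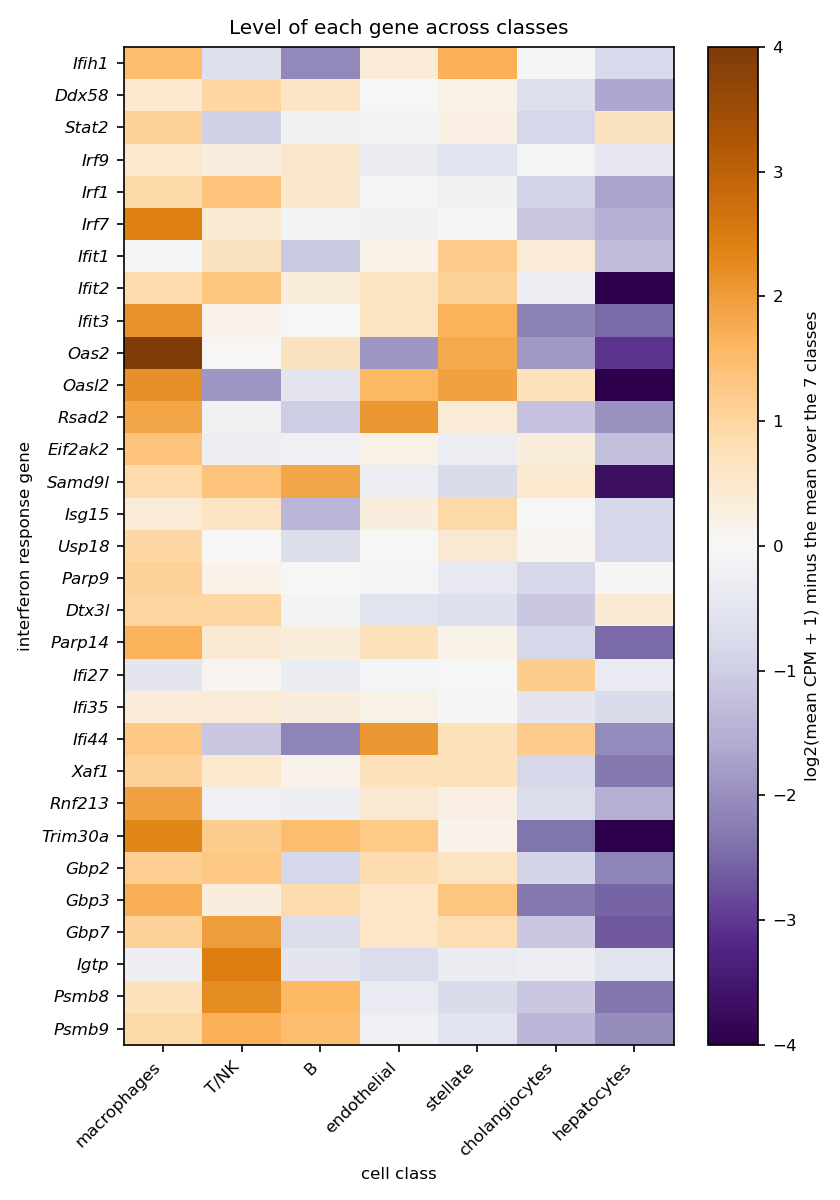
Level of each of the 31 genes (rows) in 7 classes (columns), as log2 of the mean CPM over 6 mice plus 1, minus the mean over the 7 classes; colours are cut at 4 in either direction. Macrophages were highest for 14 genes and T/NK cells for 9, whereas hepatocytes were lowest for 22 but not for Stat2.

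Other genes of the pathway were read from lists. Of 8 interferon ligands none could be tested in the main classes: Ifnb1, Ifna1, Ifnl2 and Ifnl3 had 0 UMIs in all kept nuclei, Ifna2, Ifna4 and Ifne 2, 1 and 1 UMIs, and Ifng 41 UMIs. Among receptors and kinases 0 passed in any class, and Jak1 had fold changes of -0.27 (SE 0.17) in endothelial cells and -0.08 (SE 0.12) in macrophages. Of 16 upstream sensors, adaptors and factors, 13 were tested in endothelial cells and 0 passed, with 5 above 0. Nlrc5, which drives MHC class I genes, was at 0.28 (SE 0.14) there, with groups apart. Irf8 had a fold change of 1.42 (SE 0.42) in T/NK cells, without passing. Negative regulators gave 0 calls, with Socs1 at 0.45 (SE 0.35) in endothelial cells. Of the other interferon-induced genes, 60 in number, 0 passed in any class, and 48 of 55 were above 0 in endothelial cells (median 0.22, background 49.1%), 44 of 51 in stellate cells (0.19, background 49.7%), 40 of 56 in macrophages (0.11, background 50.5%) and 31 of 44 in hepatocytes (0.10, background 49.5%). In T/NK cells 31 of 40 were above 0 (0.18, background 49.9%), in cholangiocytes 13 of 16 (0.39, background 49.2%) and in B cells 12 of 26 (-0.02, background 49.4%). Their smallest p in endothelial cells belonged to Cd274, the checkpoint ligand PD-L1, at 0.96 (SE 0.20, unadjusted p 0.000632, edgeR adjusted p 0.559), and to Irgm1, a GTPase that controls others of its family, at 0.62 (SE 0.13). Cxcl9, a chemokine that draws T cells, had a fold change of 1.52 (SE 0.37) over all kept nuclei, and Tap1, the peptide transporter next to Psmb9, 0.47 (SE 0.14) in macrophages. Both were apart with knockouts higher and neither passed.

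The genes most like the members were named by their correlation over 42 points, the 6 mice in each of 7 classes, as log2 CPM minus the mean of the class. Among 3777 genes tested in all 7 classes, Trim34a had a Pearson r of 0.74 against the mean of the 11 members tested there. Ddx60 (0.71) and Trim12a (0.68) were also among the most like, as were Glcci1, Rnf167, Rps20, Sos2, Mbtd1, Fabp1, Ipo8, Capn7, H2-T23, Dbi and Arpc2, at 0.68 to 0.64. The points share libraries, depth and free RNA, and the list holds Fabp1, a hepatocyte transcript.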

How the data were processed

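The unit of the deposited files is counts: UMI counts per gene and barcode in filtered matrices of 6 libraries. Per the submitters' processing notes they were made with Cell Ranger 7.0.1 on mm10, whereas per the file headers it was version 7.1.0. The sources used here do not say whether introns or strand entered the counting. Nuclei with at least 500 genes and 1000 UMIs and at most 5% mitochondrial UMIs were kept (26467 of 27297 barcodes), and 805 doublet calls were removed. Nuclei were clustered with scanpy 1.11.5 and leidenalg 0.10.2 (3000 variable genes, 30 components, resolution 1.0) and named from marker lists. Thresholds for naming, and resolution 0.8 with centring within libraries for the endothelial clusters, were set after clusters were seen. Of the classes, 7 had at least 20 nuclei in every library and were tested. UMIs were summed per mouse and class and tested with edgeR 4.0.16 in R 4.3.3 (quasi-likelihood test, TMM factors, filter on low counts, Benjamini-Hochberg adjustment over all genes of the class). DESeq2 1.42.0, other scalings, no filter, nuclei thinned to 1000 UMIs or with at least 2000 UMIs, other clusterings and leaving out mice were alternatives. The test was tested on simulated data. CPM are UMIs per 1000000 UMIs of the class. Positions are from GENCODE M21 on mm10. Named genes are the 3 of smallest p in a class, those apart in 3 classes, the member of each role with most UMIs, and Irf7, Isg15, Ifit1 and Stat2. The members and lists were chosen with earlier results of these data known. Each library carries its own number in its title, read here as its mouse, and replicates were numbered in accession order. The values of 1 gene of the pathway lists are not reported here.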

Additional observations from a re-analysis of the deposited data

Results flagged for a closer look

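For 2 genes the 3 knockouts and the 3 controls did not overlap in a pair of classes, in opposite directions. Of all genes tested, 7.16% were apart with knockouts higher in endothelial cells. With knockouts lower, 2.94% were apart in stellate cells and 3.38% in macrophages. The share of all genes apart in opposite directions in a pair of classes is not given here, so this count stands without a background. Ifit2, an effector that binds viral RNA, had a log2 fold change, knockout over control, of 0.26 in endothelial cells and of -0.36 in stellate cells. The difference between these classes was 0.63 (SE 0.30), at an unadjusted p of 0.0464 and an edgeR adjusted p of 1 over 16062 genes. Gbp7, a GTPase, had a fold change of 0.34 in endothelial cells and of -0.24 in macrophages. That difference was 0.60 (SE 0.27), at an unadjusted p of 0.0359 and an edgeR adjusted p of 1. Neither difference passed.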

How the results depend on the processing

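No paired analysis was possible because the labels carry no replicate numbers that the groups share. Of 218 medians of the members under alternatives, 207 were above 0. With no filter on low counts, edgeR called 1 member in endothelial cells (Ifi44, adjusted p 0.00675) and 1 in periportal nuclei (Ifi44, 0.00725). It also called 1 in the Csmd1-led cluster (Rsad2, 0.00366). The share of all genes that passed without the filter is not given here, so these calls stand without a background. Groups overlapped for Ifi44 in endothelial cells and for Rsad2 in the Csmd1-led cluster. With no filter the median of the Rspo3-led cluster was 0.15. Thinned nuclei gave medians of -0.32 in cholangiocytes and 0.62 in the Rspo3-led cluster, each on 1 member tested, and 0.15 in the Csmd1-led cluster. Nuclei with at least 2000 UMIs gave 0.28 in T/NK cells, and doublet calls kept gave 0.47 in cholangiocytes. Without control 1 and knockout 2 the median of the Csmd1-led cluster was 0.25. Leaving out each mouse in turn gave medians of -0.11 to 0.18 in B cells, the highest without control 2, and 0.26 to 0.48 in cholangiocytes, the highest without control 3. It gave 0.13 to 0.30 in stellate cells, 0.05 to 0.22 in T/NK cells, the lowest without knockout 3, and 0.06 to 0.34 in hepatocytes. The causes were not tested. Depth limits the smaller classes, where 17 of the 31 members had too few UMIs to test in B cells and in cholangiocytes.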
